A study of Mus musculus with 8 samples.

Results

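The accessible sites described here lie in the stretches of the mouse genome that are poorest in protein-coding genes. They come from ATAC-seq, in which a transposase cuts and tags accessible DNA, of mouse dendritic cells that the titles call CD8-positive. Both samples, replicates 1 and 2, are of unstimulated cells. The labels name no genotype, strain, age or agent for them, and call the source both splenic dendritic cells and a cell line. The series also holds ChIP-seq samples for IRF3 after poly(I:C), IRF5 after CpG DNA and IRF9 after interferon-beta, 2 of each after 90 min, and these were not analysed here. A shared region is a merged stretch that holds a peak of both replicates overlapping by at least 1 bp. A far region is a shared region on an autosome or X whose centre lies outside every protein-coding gene and more than 50 kb from the nearest coding gene end. Of 44328 shared regions on these chromosomes, 4120 (9.29%) were far regions, 10218 lay 1 to 50 kb outside genes, 17456 lay inside coding genes and 12534 lay within 1 kb of a gene end. Membership used positions only, but it needs a listed peak in both replicates, which strong peaks have more often than weak ones. There is 1 group of 2 samples and no contrast between conditions, so values are descriptions without tests, and regions of the same libraries are not replicates. Whether the replicates are separate animals or cultures is not stated, so their difference may be technical. The lists hold 50950 peaks in replicate 1 and 58319 in replicate 2, with a median of 17 and 22 reads at a summit.

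The labelled cell type was checked by shared regions within 1 kb of the ends of marker genes. For the CD8-positive lineage, called cDC1, 5 of 9 markers had such a region (Xcr1, Irf8, Cadm1, Tlr3 and Flt3), and Clec9a, Batf3, Itgae and Zbtb46 had none. The other lists gave 1 of 5 for cDC2 (Irf4), 3 of 5 for plasmacytoid dendritic cells, 4 of 5 for macrophages, 1 of 5 for T cells (Cd3d) and 2 of 5 for B cells. Among all coding genes 47.8% had one, so accessible gene ends did not set cDC1 apart from the other myeloid types.

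Sites of open chromatin far from genes are often enhancers, short stretches where transcription factors bind and from which DNA loops reach a promoter. Genes for developmental regulators often sit beside long gene-poor stretches that hold many enhancers, and several enhancers close together can act on the same gene. In cDC1, the fate is set by such regulators: IRF8 and BATF3 drive the programme, ID2 blocks the E proteins of the plasmacytoid fate, and PU.1, AP-1 and RUNX factors bind many myeloid enhancers. A distance says nothing about which gene a site acts on, and the nearest coding gene is given here as a landmark only.

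A small number of far regions sat at annotated starts of non-coding RNA genes, and their sequences are shown because they are the far regions for which RefSeq (GRCm38.p6) start windows could be read. Each window runs from 250 bases before to 50 bases after a gene's start. Start windows of 73 long non-coding RNA (lncRNA) genes and of 0 coding genes overlapped 70 far regions (1.70% of them). Capitals mark matches on either strand to TGANTCA, the AP-1 motif, to GAAA, any 2 bases and GAAA again, a pair of IRF core sites, to GAGGAA, a core bound by PU.1 and other ETS factors, and to TGTGGT, the RUNX motif. No matches to different motifs overlapped in these windows. The windows were chosen after their matches were seen, to show each motif in a region beside a regulator or a known myeloid lncRNA.
Ptgs2os2: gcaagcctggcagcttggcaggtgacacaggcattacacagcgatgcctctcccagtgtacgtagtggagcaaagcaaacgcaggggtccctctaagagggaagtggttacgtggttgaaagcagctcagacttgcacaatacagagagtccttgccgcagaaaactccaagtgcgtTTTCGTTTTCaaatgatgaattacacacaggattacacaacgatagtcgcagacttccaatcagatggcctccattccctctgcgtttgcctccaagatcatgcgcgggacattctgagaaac
Morrbid: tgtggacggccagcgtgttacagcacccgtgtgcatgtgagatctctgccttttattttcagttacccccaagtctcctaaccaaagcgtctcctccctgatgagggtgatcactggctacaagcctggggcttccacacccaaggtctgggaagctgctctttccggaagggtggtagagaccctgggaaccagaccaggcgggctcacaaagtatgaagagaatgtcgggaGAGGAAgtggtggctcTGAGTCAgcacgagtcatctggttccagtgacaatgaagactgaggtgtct
Gm46343: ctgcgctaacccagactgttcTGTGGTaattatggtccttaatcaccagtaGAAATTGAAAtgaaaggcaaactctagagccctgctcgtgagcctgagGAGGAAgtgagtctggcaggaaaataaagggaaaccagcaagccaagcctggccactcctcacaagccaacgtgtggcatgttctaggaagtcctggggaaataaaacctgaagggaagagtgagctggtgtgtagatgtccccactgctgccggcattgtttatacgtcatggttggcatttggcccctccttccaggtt
Gm40930: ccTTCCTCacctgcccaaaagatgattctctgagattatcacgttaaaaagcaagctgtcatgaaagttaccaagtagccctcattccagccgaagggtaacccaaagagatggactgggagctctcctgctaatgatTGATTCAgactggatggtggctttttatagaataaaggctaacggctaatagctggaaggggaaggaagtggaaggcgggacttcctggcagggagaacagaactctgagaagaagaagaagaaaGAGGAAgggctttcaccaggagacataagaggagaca
Gm12708: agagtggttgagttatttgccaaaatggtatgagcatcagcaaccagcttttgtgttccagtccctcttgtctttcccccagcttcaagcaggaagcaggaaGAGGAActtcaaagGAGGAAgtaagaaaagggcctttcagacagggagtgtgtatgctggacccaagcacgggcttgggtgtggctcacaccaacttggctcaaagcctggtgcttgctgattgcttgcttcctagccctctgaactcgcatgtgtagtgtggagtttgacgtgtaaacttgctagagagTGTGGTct

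The Ptgs2os2 window (chr1:150164899-150165198, minus strand) starts a lncRNA beside Ptgs2, which encodes the prostaglandin synthase COX-2. It held 1 IRF match at bases 178 to 187, counted from 1 at the 5′ end. The region over it, chr1:150164881-150165230, covered all 300 bases and lay 56.8 kb from Ptgs2. Replicate 1 had a fold enrichment of 12.1 there from 35 reads and replicate 2 one of 13.1 from 55 reads, so it was among the strong regions of both lists. Fold enrichment is the authors' ratio of summit reads to the local background, with 1 added to both. Morrbid (window chr2:128429302-128429601, minus strand) is a lncRNA known to control the lifespan of short-lived myeloid cells. Its far region, 161.9 kb from Spdye4c, covered bases 173 to 300, which hold a PU.1 core match at bases 234 to 239 and an AP-1 match at bases 250 to 256. The fold enrichment there was 6.34 and 7.29, below the medians of all shared regions.

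The Gm46343 window (chr12:25303526-25303825, plus strand) lies in the gene-poor stretch beside Id2, 207.6 kb from that gene. A RUNX match at bases 22 to 27, an IRF match at bases 52 to 61 and a PU.1 core match at bases 100 to 105 all lie in the covered bases 14 to 232. The region there was weak, at 4.40-fold in replicate 1 and 4.57-fold in replicate 2. The Gm40930 window (chr13:44504378-44504677, plus strand) lies between Cd83 and Jarid2, 226.2 kb from Jarid2. Its region covered bases 175 to 297 at 8.46 and 7.13, which takes in the PU.1 core match at bases 264 to 269 but neither the match at bases 3 to 8 nor the AP-1 match at bases 139 to 145. The Gm12708 window (chr4:95193054-95193353, plus strand) lies 141.0 kb from Jun, which encodes a subunit of AP-1. It had PU.1 core matches at bases 103 to 108 and 117 to 122 and a RUNX match at bases 293 to 298, all covered, in a region of 9.85 and 12.9.

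Across all 73 windows at far regions, 57.5% held the PU.1 core, against 30.8% of the 999 lncRNA windows at other shared regions and 28.2% of all 26794 windows. The RUNX motif was in 32.9%, against 13.8% of the lncRNA windows at other shared regions and 16.8% of all windows. The AP-1 motif was in 17.8% (13 windows), against 6.21% and 7.98%, and the IRF pair in 11.0% (8 windows), against 3.10% and 3.51%. Base composition also differed between these sets. The median GC content was 49.7% in the windows at far regions and 52.7% over all windows. In the lncRNA windows at other shared regions it was 63.0%. The 9520 lncRNA windows in the table had a median GC content of 48.7%, close to that of the far windows, with the PU.1 core in 29.9%, RUNX in 20.2%, AP-1 in 9.50% and the IRF pair in 3.67%. A match is a run of letters and not a bound site, and the part of base composition in these shares was not tested.

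Far regions were sparse, but their median fold enrichment was not lower than that of other sites. The territory more than 50 kb from any coding gene covered 941 Mb, 36.2% of the span between the first and last coding genes of the chromosomes. It held 4.30 far regions per Mb, against 24.2 shared regions per Mb in the rest of that span. The density fell steadily with distance: 17.1 per Mb at 1 to 50 kb, 8.14 at 50 to 100 kb, 5.60 at 100 to 200 kb, 2.90 at 200 to 500 kb, 1.52 at 500 to 1000 kb and 1.19 beyond 1000 kb. The median far region lay 120.1 kb from a coding gene end, 2455 (59.6%) lay over 100 kb away, 326 over 500 kb and 88 over 1000 kb. The median fold enrichment of these shared regions was no lower beyond 1000 kb than at 50 to 100 kb. In replicate 1 it was 7.55 at 50 to 100 kb and 7.75 beyond 1000 kb, and in replicate 2 it was 8.34 and 9.73. Peaks without a partner are left out of these medians. Over all far peaks of replicate 2, with or without a partner, the median was 7.33. It was 8.62 at far regions and 6.88 over all peaks of that list. Reads were not compared by distance.

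**Figure D1:**
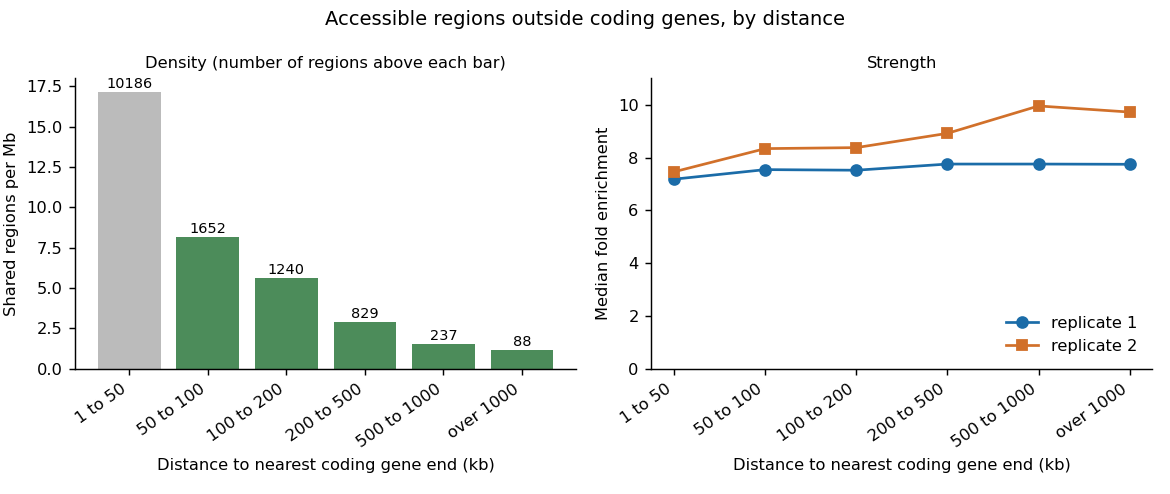
Left, shared regions per Mb of territory in bins of distance to the nearest coding gene end, with the number of regions above each bar (grey, 1 to 50 kb; green, far regions); right, the median fold enrichment of the same regions in each replicate. Regions before the first or after the last coding gene of a chromosome are left out. The density drops from 17.1 to 1.19 per Mb while the medians stay between 7.18 and 9.96.

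The median far region had 7.58-fold enrichment in replicate 1 and 8.62-fold in replicate 2, against 7.22 and 7.59 over all shared regions. The other classes lay close together: 7.19 and 7.46 for regions 1 to 50 kb outside genes, 7.16 and 7.53 inside genes, and 7.24 and 7.48 at gene ends. Far regions held a median of 15 reads in replicate 1 and 24 in replicate 2, against 17 and 25 over all shared regions, 16 and 23 at 1 to 50 kb outside genes, 16 and 24 inside genes and 20 and 29 at gene ends. The local background was lowest at far regions, where the ratio was highest. It was a median of 1.42 and 1.35 times the genome-wide level at far regions, against 2.06 and 1.75 times over all shared regions, 1.77 and 1.52 times at 1 to 50 kb, 1.88 and 1.598 times inside genes and 2.79 and 2.29 times at gene ends. Its part in the higher ratio of far regions was not tested. Far regions were 193 bp wide at the median, against 198 bp over all shared regions and 246 bp at gene ends, and 6.70% had several summits in both replicates, against 10.7% over all and 21.2% at gene ends.

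**Figure D2:**
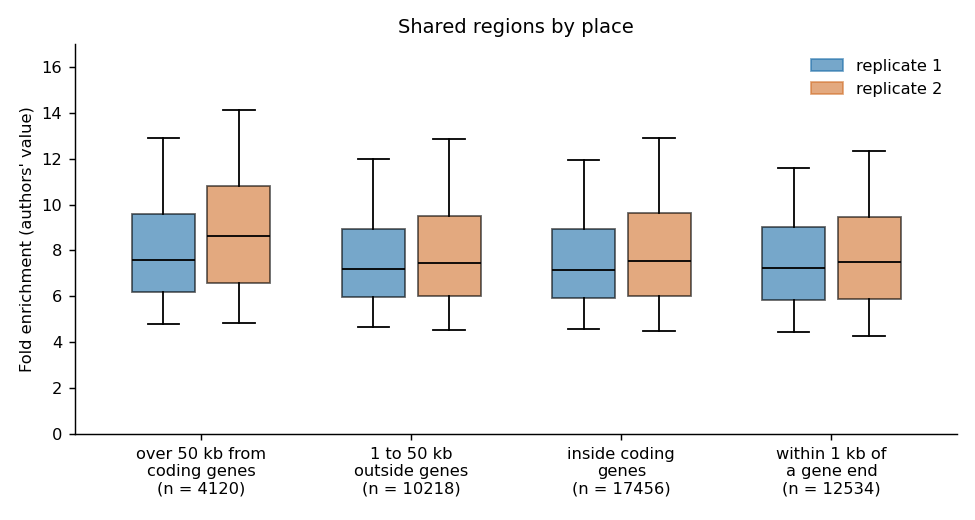
Fold enrichment of shared regions by place, in replicate 1 (blue) and replicate 2 (orange). The line is the median, the box runs from the 25th to the 75th percentile and the whiskers from the 5th to the 95th. The far regions have the highest median in each replicate, 7.58 and 8.62, and the boxes of all classes overlap.

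Replicates agreed about as well at far sites as elsewhere in one direction of the comparison and less well in the other. Of the far peaks of replicate 1, 91.9% (4207 of 4580) overlapped a peak of replicate 2, where the share over all peaks was 90.0%. Of the far peaks of replicate 2, 67.8% (4131 of 6090) overlapped a peak of replicate 1, where the share over all peaks was 76.4%. The gap in replicate 2 was widest among weak peaks: with peaks ranked by score into 4 groups of equal size, 28.8% of far peaks in the lowest had a partner, against 43.3% of all peaks, and in the highest 99.2%, against 99.7%. The 1959 far peaks of replicate 2 without a partner had a median fold enrichment of 5.71 and a median of 14 reads. Replicate 1 was the shallower library, with a genome-wide background of 0.676 reads per position against 1.28 in replicate 2. The part of depth in the missing partners was not tested. Among far regions the Spearman rho of the score between replicates was 0.733, against 0.737 over all shared regions, as a description across regions. Of the far regions, 99.3% were within 2-fold between replicates, and of the 27 beyond it 24 were higher in replicate 2.

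**Figure D3:**
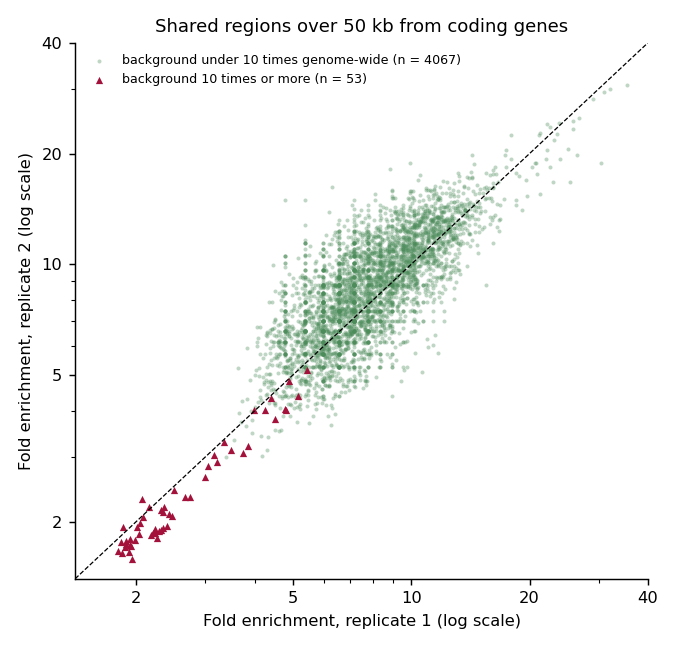
Fold enrichment of each of the 4120 far regions in replicate 1 and replicate 2, both on log scales, with the line of equality dashed. Red triangles are the 53 regions where the local background was at least 10 times the genome-wide level in both replicates; they sit at the low end, and 99.3% of all points lie within 2-fold of the line. The columns of points at low values in replicate 1 come from whole numbers of reads over the genome-wide background.

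The number of far regions differed widely between gaps. Of 2768 gaps longer than 100 kb between neighbouring coding genes, 1016 (36.7%) held a far region, and 348 of these held exactly 1. The 92 gaps with 10 or more held 1370 far regions, 33.3% of all. The gap with most lay between Id2 and Rnf144a on chromosome 12, with 39 regions in 1211 kb, or 35.1 per Mb of its far territory. It was followed by Pard3 to Nrp1 (35), Cd83 to Jarid2 (29), Nmbr to Cited2 (27), and Eea1 to Btg1, Dusp10 to Hlx and Myc to Gsdmc (24 each). Tnks to Ppp1r3b, Gadd45g to Diras2 and Cdh11 to Cdh5 held 21 each, and the stretch before Alkbh8, at the start of chromosome 9, held 35. Among these gaps density differed more than number, with 67.7 per Mb of far territory between Tnks and Ppp1r3b and 9.47 per Mb between Nmbr and Cited2, a gap of 2952 kb.

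In most of these gaps the regions leaned to one end. Id2 was the nearest coding gene of 36 of the 39 regions in its gap, Cdh5 of 21 of 21, Cited2 of 22 of 27, Jarid2 of 23 of 29 and Hlx of 18 of 24. The gap between Eea1 and Btg1 was shared more evenly, with 11 and 13 regions, as was that between Myc and Gsdmc, with 13 and 11. Strand was known for the nearest gene of 3130 far regions, of which 1737 (55.5%) lay on the side of the gene's start, close to 57.4% of regions 1 to 50 kb outside genes. By gene the side was often the same for every region: all 36 at Id2, 23 at Nrp1 and 23 at Jarid2 lay on the start side, and all 16 at Gadd45g, which encodes a stress response protein, on the end side. Regions of the same gap share a neighbourhood, so they are not independent cases of a side.

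**Figure D4:**
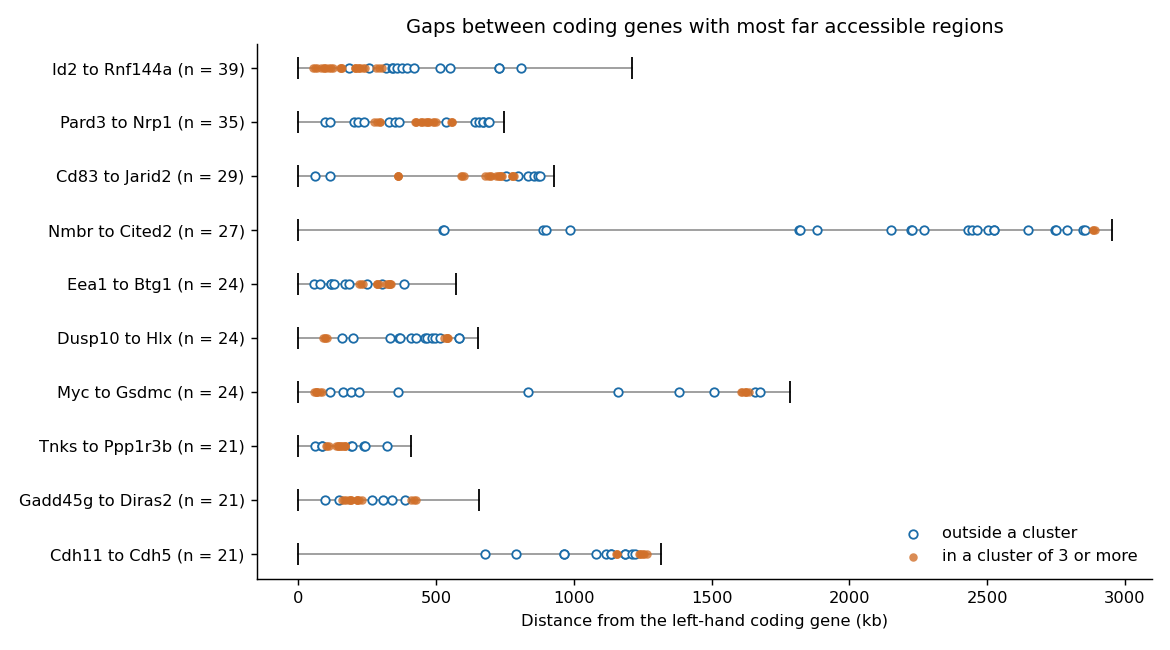
Positions of far regions (points) in 10 of the gaps between coding genes that hold most, as the distance in kb from the left-hand gene; vertical ticks mark the 2 genes, and orange points belong to clusters of 3 or more regions. The 39 regions between Id2 and Rnf144a crowd towards Id2, and the 21 between Cdh11 and Cdh5 towards Cdh5.

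Id2 encodes the inhibitor of E-protein transcription factors that cDC1 need to form. Its 36 far regions lay 54.8 to 552.8 kb beyond its start, and 25 of them fell in 5 clusters. Their fold enrichment had a median of 7.56 in replicate 1, from 4.14 to 13.6, and of 7.98 in replicate 2, from 3.40 to 13.1. These medians are close to those over all shared regions, so the locus stood out by number and not by strength. It did not stand out by density, with 35.1 regions per Mb of far territory in its gap. That lies between 67.7 from Tnks to Ppp1r3b and 9.47 from Nmbr to Cited2. The strongest region of both replicates, chr12:25516830-25517126, lay 420.9 kb away and had 13.6 and 13.1 with 26 and 32 reads. Nearer to the gene, chr12:25157239-25157555 at 61.3 kb had 11.7 and 12.49 with 27 and 37 reads. The weakest in replicate 2, chr12:25251873-25252052 at 155.9 kb, had 4.32 and 3.40 and lay next to a stronger one of 6.75 and 8.56 at 155.5 kb. The cluster of 8 from 205.1 to 243.7 kb held values of 4.40 to 10.0 in replicate 1 and 4.57 to 10.7 in replicate 2. Predicted lncRNA genes run through the gap: 10 regions had their centre in Gm36287 and 7 in Gm36723.

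Other genes that were nearest to many far regions had various roles. Over all 21631 coding genes, 1316 (6.08%) were the nearest gene of a far region, and over the 4534 that border a gap of more than 100 kb or end a chromosome's gene row the share was 29.0%. Of the 1316 genes, 523 had 1 far region and 68 had 10 or more, and these 68 accounted for 976 regions (23.7%). After Id2 came Alkbh8 with 35, a tRNA-modifying enzyme whose regions are described with the clusters. The peaks of replicate 1 alone put Alkbh8 first with 45, and those of replicate 2 alone put Id2 first with 43. Jarid2, a subunit of the Polycomb complex PRC2, and Nrp1, a receptor for semaphorins and VEGF, had 23 each, and Adgrl2, an adhesion receptor, and Cited2, a coregulator that binds CBP and p300, had 22 each. Cdh5, the endothelial cadherin, had 21, and Marcks, an actin-binding substrate of protein kinase C, had 20. Eea1, an early endosome tether, Hlx, a homeobox factor, Rasgef1b, an exchange factor for small GTPases, and Tnks, the poly-ADP-ribose polymerase tankyrase, had 18 each.

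Trib1, which encodes a pseudokinase that sends C/EBP alpha for degradation, had 17. Another 6 genes had 16: Atp2b1, a calcium pump, Gadd45g, Rab28, Reep3, St3gal1, a sialyltransferase, and Tomm20, a mitochondrial import receptor. Leaving out Alkbh8, the medians of these genes lay between 6.56 at Eea1 and 9.25 at Gadd45g in replicate 1, and between 6.64 at Reep3 and 10.5 at Adgrl2 in replicate 2. The genes also differed in how far out their regions lay. The median distance was 91.1 kb at Tomm20 and 93.2 kb at Reep3, against 438.2 kb at Cited2 and 464.0 kb at Adgrl2.

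Among 9 gene lists, the regulators of dendritic and myeloid lineages had far regions most often. Of 43 listed regulators, 25 were the nearest gene of at least 1 far region, with 175 regions in all, 4.25% of the far regions. Only 27 of the 43 border a gap long enough to have any, so 25 of 27 (92.6%) of those had one, beside 29.0% over all such genes. Gap lengths were not matched between a list and all such genes, here or for the other lists below. The lists were drawn up with earlier results of these data known, and no test was made. After Id2, the members with most were Klf4, Myc and Prdm1 with 15 each and Ahr and Bcl6 with 12 each.

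Klf4, a zinc-finger factor of monocytes and some dendritic cells, had regions 91.1 to 485.9 kb beyond its start. The strongest in replicate 1, chr4:55741365-55741692 at 209.1 kb, had 14.0 and 14.4, and the strongest in replicate 2, chr4:55942500-55942685 at 410.1 kb, had 13.1 and 15.4. Prdm1, which encodes the repressor BLIMP-1, had 15 regions within 54.0 to 200.6 kb of its start side, 12 of them in clusters and 8 with their centre inside the lncRNA gene Gm35154. Its values ran from 4.64 to 12.6 in replicate 1 and from 4.80 to 14.4 in replicate 2, so weak and strong regions were mixed along the stretch. Myc, the growth regulator, had regions from 56.1 to 834.0 kb, with a median of 7.76 and 8.03. Ahr, the receptor for aryl hydrocarbons, had them within 91.7 to 176.8 kb, with a median of 8.75 and 8.19. Bcl6, a repressor that cDC1 need, had them within 73.9 to 176.9 kb, all on the start side, with a median of 7.44 and 7.29.

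Irf8 and Zeb2 were chosen for a closer look after their values were seen, for their part in dendritic cell fate. Irf8, the factor that cDC1 depend on most, had 6 far regions, all on its end side at 51.1 to 132.7 kb, of which 4 formed a cluster. Their fold enrichments were modest, with a median of 6.01 in replicate 1 and 5.64 in replicate 2 and a highest value of 8.36 and 7.26 at chr8:120828383-120828566. Zeb2, which opposes Id2 in these lineages, had 3 regions on its start side at 129.3, 144.7 and 162.2 kb, each inside the lncRNA gene Vis1. The middle one, chr2:45262029-45262302, had 10.2 and 12.9, and the others had 6.56 and 7.11 in replicate 1 and 6.59 and 6.65 in replicate 2. The 18 regulators without a far region included Batf3, Irf4, Spi1, Nfil3 and Zbtb46.

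**Figure D5:**
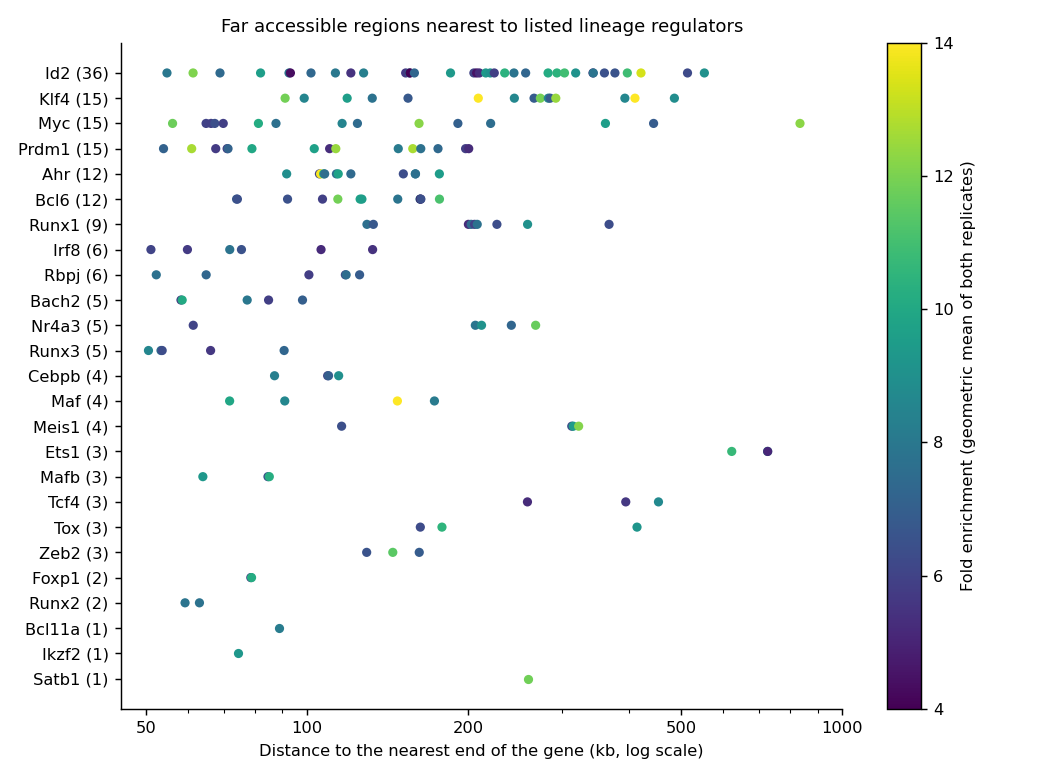
Far regions whose nearest coding gene is a listed regulator of dendritic or myeloid lineages: each point is a region, placed by its distance in kb to the gene's nearer end (log scale) and coloured by the geometric mean of its fold enrichment in both replicates, with the number of regions after each gene's name. Id2 has 36 regions out to 552.8 kb, and 25 of 43 listed genes have at least 1.

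Few genes in the lists of innate and effector function border a long gap, so the shares below rest on small counts. Over all genes that border a long gap, 29.0% had a far region. Of 32 interferon and interferon-stimulated genes matched as coding, 0 had one, and 4 of the 32 border a long gap. Of 22 cDC1 surface and effector genes, 2 of the 5 beside such a gap (40.0%) had one: Cd24a, a surface glycoprotein, with 7, and Cadm1, an adhesion molecule, with 2. At Cd24a the values ran from 5.80 to 10.5 in replicate 1 and from 4.67 to 12.1 in replicate 2. Of 35 inflammatory and NF-kB feedback genes, 7 of the 12 beside a long gap (58.3%) had one, with 23 regions. These counts depend on the distance limit: 15 of the inflammatory genes had a region beyond 25 kb and 3 had one beyond 100 kb. Nfkbiz, an inducible NF-kB cofactor, had 9 at 56.8 to 188.0 kb, with a highest value of 12.2 and 13.2 at chr16:55698439-55698959. Tnfaip3, which encodes the NF-kB inhibitor A20, and Egr2, an inducible factor, had 4 each, and Ptgs2 and Tnip3 had 2 each. Il6 and Atf3 had 1 each. The Il6 region, chr5:29948201-29948475 at 64.8 kb, had 12.7 and 13.2 with 31 and 44 reads, and the Atf3 region had 4.901 and 6.37.

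Of 18 maturation and migration genes, 2 of the 4 beside a long gap had far regions. Cxcr4, a chemokine receptor, had 8, all in clusters at 113.0 to 240.5 kb, with a median of 7.71 and 8.54. Cd83, a surface marker of mature dendritic cells, had 6 at 61.6 to 362.6 kb. The strongest in replicate 1, chr13:43864503-43864872, had 11.8 and 11.7, and the strongest in replicate 2, at 116.8 kb, had 11.0 and 12.7. In the lists of other cell types, 0 of 5 T cell genes beside a long gap, 1 of 3 B cell genes (Ebf1 with 7), 2 of 6 neuronal genes (Pou3f2 with 2 and Syt1 with 1) and 3 of 8 fibroblast genes (Thbs1 with 6, Dcn with 4 and Col3a1 with 1) had any. Apart from the T cell list, these shares of 33.3% to 37.5% lie near the 29.0% over all such genes. Ebf1, which commits progenitors to the B lineage, had a median of 6.95 in replicate 1 and 8.40 in replicate 2.

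A cluster was taken as 3 or more far regions with neighbouring centres at most 12500 bp apart. There were 339 clusters with 1351 regions (32.8%), while 988 regions (24.0%) stood in pairs and 1781 (43.2%) stood alone. Most clusters were small: 183 had 3 regions, 66 had 5 or more and 15 had 8 or more, and the median span was 11.3 kb. The far peaks of replicate 2 alone formed 609 clusters and those of replicate 1 alone 398, so the number depends on the library. Fold enrichment was lower in clusters than outside them, with a median of 7.12 in replicate 1 and 7.42 in replicate 2, against 7.76 and 9.08. The clustered set includes all 53 regions where the local background was at least 10 times the genome-wide level. Reads were not compared between these sets. For the shares by distance, regions before the first or after the last coding gene of a chromosome were left out. The share in clusters was 32.6% at 50 to 100 kb, 39.0% at 100 to 200 kb and 29.9% at 200 to 500 kb. It was 8.02% at 500 to 1000 kb and 14.8% beyond 1000 kb.

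The cluster with most regions, 32 at chr9:3000025-3038273 before Alkbh8, had unusual values. Its median fold enrichment was 2.25 and 1.90, while the median region there held 101.5 and 122 reads over a local background of 72.7 and 51.0 times the genome-wide level. The other 3 of this kind were 9 regions at chr14:19415725-19419466 near Gm2244 with a background of 34.7 and 23.9 times, 8 at chr17:39843050-39848792 near Esp38 with 56.6 and 36.8 times, and 4 at chr2:98662239-98667329 near Lrrc4c with 34.2 and 21.0 times. The cluster near Esp38 lies over Rn18s-rs5, a ribosomal RNA sequence copy. These 53 regions, 1.29% of the far regions, were all those with a background of at least 10 times the genome-wide level in both replicates, a limit set after the values were seen, and all 53 lay in clusters. Whether repeated sequence has a part in them was not tested.

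Outside those stretches the clusters had ordinary values. The largest, 11 regions in 43.5 kb at chr8:115407656-115451113 between Wwox and Maf, had a median of 7.58 in replicate 1 and 8.03 in replicate 2. Maf encodes a factor of macrophages and some T cells, and Wwox, the nearest gene, an oxidoreductase. Clusters of 10 lay near Tnks (chr8:35104781-35136941, median 7.55 and 6.74) and near Irs2, an insulin receptor substrate (chr8:10819190-10858199, 6.35 and 5.82). Clusters of 9 lay near Zfp36l2, which encodes an mRNA decay factor (chr17:84089729-84119896, 6.57 and 6.95), and near Rnf152, a ubiquitin ligase gene (chr1:105167180-105199581, 6.93 and 6.59). Clusters of 8 lay near Trib1 (chr15:59721085-59744842, 7.35 and 6.92), Atp2b1 (chr10:98774933-98805355, 6.66 and 8.02) and Id2, between Smim20 and Rbpj, between Tcp10c and Tcte2, over Firre and in the immunoglobulin heavy-chain locus. The one between Tcp10c and Tcte2 had a raised background as well, 11.6 times in replicate 1 and 9.35 times in replicate 2 at the median.

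Many far regions touched a non-coding gene. The centre of 982 (23.8%) lay inside one, mostly a lncRNA gene (882), and 323 (7.84%) had a non-coding gene end within 1 kb, including 238 at lncRNA genes and 59 at pseudogenes. Neither held for 2988 (72.5%). The lncRNA genes with most far regions were A930011G23Rik beside Rasgef1b with 18, Gm31718 beside Tomm20 with 13, and Pvt1 beside Myc with 11. The Pvt1 locus, which is known to hold enhancers of Myc, had a median of 7.10 and 8.03, with a range of 5.65 to 11.6 in replicate 1 and 5.18 to 15.4 in replicate 2. Firre, an X-linked lncRNA gene that binds CTCF, had 10 regions with low and even values of 4.12 to 7.76 in replicate 1 and 4.15 to 6.38 in replicate 2. Near another X-linked lncRNA gene, Jpx, an activator of Xist, the region at its start had 12.1 and 12.4.

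Antigen receptor segments are not annotated as protein-coding in the RefSeq table, so sites inside those loci could count as far. Igh held 14 far regions, Igk 6, Tcrb 6, Tcra 2 and Igl and Tcrg 1 each. The Igh regions had a median of 6.26 and 7.35, and the Igk regions 10.5 and 13.4. Apart from microRNA genes, the highest scoring far regions within 1 kb of a non-coding gene end lay at Gm7240, a pseudogene, with 15.6 and 15.9, at BC002059, a lncRNA gene, with 12.9 and 14.0, and at Ptgs2os2. They were followed by Gm45805, a lncRNA gene near Irf2bp2, with 10.6 and 10.4, and by the pseudogenes Gm8291, 2610005L07Rik, Gm20584 and Gm8077. Gm32098, a lncRNA gene near Zfp703, and Gm7895, a pseudogene near Pdcd1, completed the first 10.

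MicroRNA genes had an end within 1 kb of 4 far regions. The mature forms of the known ones are printed to show which seeds they carry, with the seed, bases 2 to 8, in capitals. All 3 seeds differ.
miR-9-5p: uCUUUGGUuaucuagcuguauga
miR-9-3p: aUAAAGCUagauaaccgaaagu
miR-101c: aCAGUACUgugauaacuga
Mir9-2, known for its part in neural development, lay under the region chr13:83738605-83738919, inside the lncRNA gene C130071C03Rik and 71.7 kb from Mef2c. Both mature forms, at chr13:83738821-83738843 and chr13:83738858-83738879 on the plus strand, fell within it. It had 14.2-fold enrichment in replicate 1 and 17.8-fold in replicate 2, with 31 and 56 reads, above 98.4% and 99.8% of the peaks in each list. The neighbouring region chr13:83738362-83738552 had 6.20 and 4.97. The predicted microRNA gene Gm51268 overlaps Mir9-2, and another, Gm51276, lay near Errfi1 with a region of 9.17 and 11.2. Mir101c lies at chr9:3038680-3038698, beside the cluster of raised background before Alkbh8, and its region had 3.73 and 3.08 over a background of 38.2 and 27.2 times the genome-wide level.

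A few far regions had some of the highest fold enrichments of the whole data. No list of unreliable regions was available to check them against, so whether they mark accessible DNA was not tested. Of the 70 shared regions above 20-fold in a replicate, 30 were far regions, which is 0.728% of far regions, against 0.158% of all shared regions. The region with the highest score, chr12:3109848-3110141 at 137.4 kb from Rab10, had 30.9 and 29.4 with 107 and 130 reads. Near Galc, chr12:97061411-97061812 had 25.8 and 24.5, near Nxph1 chr6:9889923-9890182 had 35.4 and 30.6, and near G6pd2 chr5:60042709-60043090 had 32.0 and 29.9. The others of the first 10 lay near Pex2, Tyrp1 (2 regions within 1 kb of each other), Axin2, Gm9631 and Ccnh, and had values of 21.2 to 29.0 in replicate 1 and 15.5 to 28.1 in replicate 2. None of the 10 was in a cluster, and their distances ran from 57.1 to 1766 kb. Their local background was 1.18 to 5.24 times the genome-wide level in replicate 1 and 1.00 to 3.65 times in replicate 2, where the medians of all far regions were 1.42 and 1.35 times. Of the 30, 8 lay before the first or after the last coding gene of a chromosome, where 74 far regions lay in all.

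The farthest region, chr1:102628193-102628328, was 2138 kb from Cntnap5b and had 30.5 in replicate 1 and 18.9 in replicate 2, with 51 and 42 reads. The next, 2102 kb from Pcdh9, had 16.1 and 11.4, and that at 1881 kb from Tenm3 had 6.74 and 9.45. Another pair near Cntnap5b, at 1868 and 1866 kb, had 8.76 and 7.14 in replicate 1 and 11.3 and 6.71 in replicate 2. At the other extreme, the regions just inside the limit lay 50.025 kb from Gpc5 (4.40 and 4.69), 50.034 kb from Elovl4 (11.0 and 13.4) and 50.070 kb from Itga1 (6.23 and 6.84). Those just outside lay 49.990 kb from Gcnt1 (6.23 and 4.76), 49.972 kb from Ep300 (5.15 and 5.81) and 49.959 kb from D16Ertd472e (8.73 and 9.88).

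Chromosomes differed in how densely their far territory was occupied. Chromosome 10 had 7.20 far regions per Mb, chromosome 13 had 6.80 and chromosome 8 had 6.66, while chromosome 7 had 2.29 and X had 0.962. X also had few shared regions in all, 765, of which 77 (10.1%) were far.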

How the data were processed

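ATAC-seq of 2 unstimulated samples was used, each with a peak list of its own. Per the submitters' processing notes, tools were MACS2, HOMER 4.9.1, BWA 0.7.17, Trimmomatic and Picard 2.8.1, and the build was mm10. The shift of reads for the transposase, the removal of duplicates or unreliable regions and the calling threshold are not given in the sources used here. Each can alter the set of listed peaks, weak or strong. The deposited fold enrichment is a ratio of reads to local background, each with 1 added. The deposited −log10 p and −log10 q and the deposited score, the whole part of 10 times the −log10 q, are the authors' values per summit, used only to describe and rank regions. Reads were recovered from the ratio and p for 100% of summits within 0.002.

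Summits of a peak were joined, keeping the one with the highest score, and peaks overlapping by 1 bp were merged. The score percentile is within a list. Genes and strands came from RefSeq GRCm38.p6, whose gene table gives start and end. Of the 10348 coding genes with a shared region within 1 kb of an end, any part of the region counted. The 20 nearest genes, the 12 gaps, 10 clusters, 10 strongest and 5 farthest regions were named by number or score, and up to 6 genes a list; 1 of these gaps and 1 of these genes are not reported here. Of the interferon list, 3 of 35 symbols (Mx1, Mx2, Cxcl11) were not matched to a coding gene. The members and lists were chosen with earlier results of these data known. Python 3.11.15, numpy 2.4.6, pandas 2.3.3, scipy 1.17.1 and matplotlib 3.10.9 were used. The recovery of reads, merging and placing were tested on simulated data, and clustering was not. No listed summit had fewer than 7 reads (replicate 1) or 9 reads (replicate 2), which bounds what could be listed. Alternatives were other distances, overlaps, cluster gaps, gene sets, a score limit, and each replicate alone.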

Additional observations from a re-analysis of the deposited data

Results flagged for a closer look

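Shared peaks were also present on the chromosomes that the far regions leave out. On chromosome Y, replicate 1 had 38 peaks, 35 of which had a partner in replicate 2, and on the mitochondrial chromosome 5 of 5 did. Neither was used in any comparison, and the data hold no control sample to set them against.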

How the results depend on the processing

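No paired analysis was possible because the files hold 1 group. At a distance of 25 kb there were 6405 regions (14.4% of shared regions), a replicate 2 median fold enrichment of 8.34, 561 clusters and 9.82% at non-coding gene ends, and at 100 kb 2455 regions (5.54%), 8.78, 197 clusters and 6.31%. A reciprocal overlap of 50% gave medians of 7.76 in replicate 1 and 8.78 in replicate 2. The better-scoring 50% of each list gave 1981 regions, medians of 9.59 and 10.5, a width of 240.0 bp, 83 clusters with 15.3% of regions, and 8.38% at non-coding gene ends. Measured from all annotated genes, 1023 regions were left (2.31%), with medians of 7.76 and 9.14 and 65 clusters holding 23.9%, and none lies at a non-coding gene end by construction. Leaving out predicted coding genes gave 8.34% at non-coding gene ends. A cluster gap of 5 kb gave 149 clusters with 13.4% of regions, and 25 kb put 46.8% in clusters.

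With each replicate left out in turn, the share of far regions was 8.997% to 10.5%, the replicate 2 median 7.33 and the replicate 1 median 7.21, the width 140.0 to 152 bp, the clusters 398 to 609 with 36.0% to 41.3% of regions, and the non-coding share 7.37% to 8.01%. Leaving out the 53 regions of raised background or those outside the first and last coding genes, 2 alternatives chosen after seeing the data, moved no result by more than the SD between replicates. Among the alternatives run for nearest genes, which leave out the one on all annotated genes, Id2 had most far regions except at 100 kb (Alkbh8, 34), without replicate 2 (Alkbh8, 45) and without predicted genes (Speer1, 40). The listed lineage regulators with a far region numbered 18 at 100 kb and 27 at 25 kb, the inflammatory genes 3 and 15, the maturation genes 2 and 6, the cDC1 surface genes 1 and 4, the T cell genes 0 and 2 and the interferon genes 0 and 1.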
